A study of Homo sapiens with 16 samples.

Results

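The transcripts described here are those of the human mitochondrial genome, chosen as every row of the deposited gene table whose symbol starts with MT-. The rule found 37 of 63187 genes: 13 mRNAs, 2 rRNAs and 22 tRNAs. The material was SK-N-BE(2), an established human neuroblastoma line with amplified MYCN, from which 16 poly(A)-selected, stranded libraries were sequenced. There were 4 groups of 4 libraries. WT cells are labelled wild type, and FL, NCTAD and cIDR cells were transfected with a form of HIF-2α, the oxygen-regulated transcription factor that EPAS1 encodes. FL carries it whole, and the study's design writes the other 2 forms as ΔN-CTAD and Δc-IDR. All groups were grown at 21% oxygen with 10% serum. The labels do not give the plasmid, how long after transfection RNA was taken, or whether WT cells were mock transfected, so transfection itself and the HIF-2α form cannot be told apart in a comparison with WT. Each replicate number, 1 to 4, is also given as a batch in the labels, and each batch holds 1 library of every group.

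Mitochondrial DNA is a small circular genome kept in many copies per cell. It is transcribed from both strands as long polycistronic RNAs by the polymerase POLRMT with TFAM, and the tRNAs that lie between the other genes are cut out to release the rRNAs and mRNAs. Most of the mRNAs then receive short poly(A) tails from MTPAP, while MT-ND6 is known to be left without one. The 13 mRNAs encode core subunits of the respiratory chain and ATP synthase: 7 belong to complex I (MT-ND1 to MT-ND6 and MT-ND4L), 1 to complex III (MT-CYB), 3 to complex IV (MT-CO1 to MT-CO3) and 2 to complex V (MT-ATP6 and MT-ATP8). The rRNAs MT-RNR1 and MT-RNR2 build the small and large mitochondrial ribosome subunits.

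Because the libraries captured poly(A) RNA, the annotated 3′ ends of the mRNA genes are shown first. They are the last 24 bases of the GENCODE 29 transcripts (GRCh38, mitochondrial chromosome), 5′ to 3′ on the coding strand. An annotated end need not be the end of the mRNA. MT-ND4L ends inside the mRNA that it shares with MT-ND4. In 6 of the 13 mRNAs the annotated end holds only the first 1 or 2 bases of a stop codon, and the tail supplies the rest. The other 7 end in a whole stop codon. Capitals mark the stop codon or its part.
MT-ND1: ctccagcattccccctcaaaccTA
MT-ND2: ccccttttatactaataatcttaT
MT-CO3: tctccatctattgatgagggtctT
MT-ND3: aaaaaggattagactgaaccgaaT
MT-ND4: acatcattaccgggttttcctctT
MT-CYB: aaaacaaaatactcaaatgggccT
MT-ND4L: aacctaaacctactccaatgcTAA
MT-ND5: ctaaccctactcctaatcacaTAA
MT-ND6: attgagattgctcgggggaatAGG
MT-ND4L, MT-ND5 and MT-ND6 are printed because their balance differed in 1 library, described below. MT-ND5 (positions 12337 to 14148, plus strand) and MT-ND6 (14149 to 14673, minus strand) meet end to end on opposite strands. MT-ND4L (10470 to 10766) and MT-ND4 (10760 to 12137) share 1 mRNA and overlap by 7 bases. MT-ATP8 (8366 to 8572) and MT-ATP6 (8527 to 9207) also share an mRNA, and their 46 common bases make up 22.2% of MT-ATP8. In these runs the start codon of the downstream gene and the stop codon of the upstream gene are in capitals.
MT-ATP8 and MT-ATP6, 8527 to 8572: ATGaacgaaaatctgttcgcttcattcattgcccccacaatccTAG
MT-ND4L and MT-ND4, 10760 to 10766: ATGcTAA
Reads from these shared bases cannot be placed in 1 gene, and the deposited estimates split them.

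Totals were 38572655 to 56065781 estimated counts per library. EPAS1 was at 13.2 to 29.6 CPM (counts scaled to a common library size) in the WT libraries and at 1367 to 5782 CPM in the other 12. Of 13 fixed neuroblastoma markers, 12 were over 1 CPM in every library, while the 5 immune and 3 endothelial markers were at or under 1 CPM in every library. Of 7 mesenchymal markers 4 were over 1 CPM in every library, with FAP at 0, and of 6 epithelial markers 1 was, with KRT5 at 0. The summed mesenchymal markers ranged over 102 to 202 CPM in WT, 101 to 210 in FL, 95.3 to 207 in NCTAD and 90.6 to 202 in cIDR, and their part in the results was not tested. Before the results, 2 libraries need to be set apart. The FL library of batch 4 held far fewer mitochondrial counts than any other, and the FL library of batch 1 held them in another balance. The comparisons that rest on them are given with and without them, a choice made after seeing the data. In bulk RNA, a smaller part of the cells at the usual level and a lower level in every cell cannot be told apart.

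The 13 mRNAs gave between 2.16% and 9.05% of all counts in a library. In batch 1 they took 5.44% (WT), 6.36% (FL), 6.69% (NCTAD) and 6.68% (cIDR). In batch 2 the shares lay close together, at 5.99% for WT, 6.53% for FL, 5.97% for NCTAD and 6.21% for cIDR. Batch 3 ran from 6.40% in WT to 7.79% in FL, 8.43% in cIDR and 9.05% in NCTAD. WT was thus the lowest library of batches 1 and 3. In batch 4 the shares were 7.66% in WT, 8.09% in NCTAD and 7.64% in cIDR, but 2.16% in FL. Wilson 95% intervals around the mRNA shares reached at most 0.00788 percentage points to either side, and they cover counting error only. On the log2 CPM scale, computed from the library totals, the summed mRNAs were at 15.73, 15.87, 15.97 and 16.23 in WT and at 15.96, 15.996, 16.25 and 14.40 in FL, for batches 1 to 4. NCTAD stood at 16.03, 15.87, 16.47 and 16.30, and cIDR at 16.03, 15.92, 16.36 and 16.22. The groups overlapped, and all but the FL library of batch 4 lay within 1 log2 unit of each other.

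**Figure D1:**
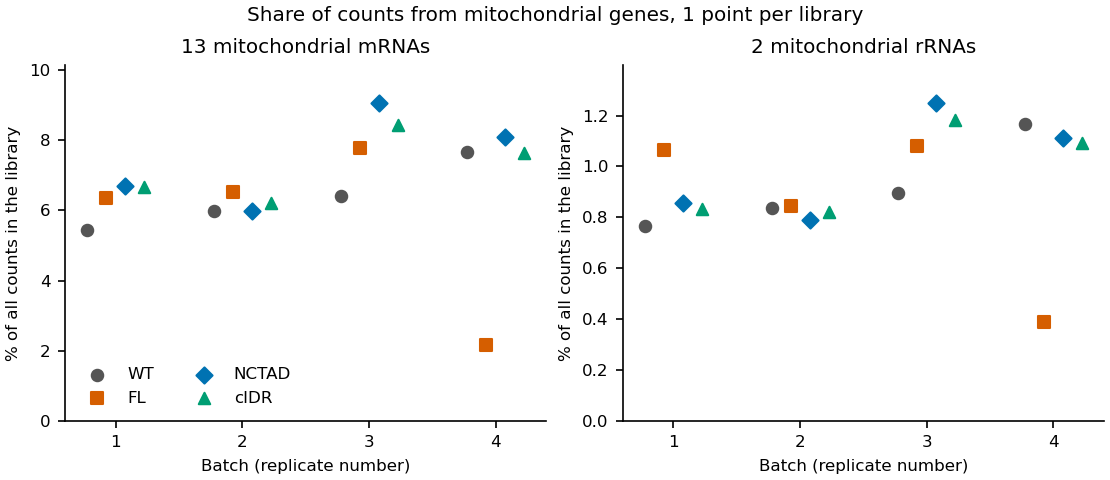
Share of all counts in a library (%, y axis) taken by the 13 mitochondrial mRNAs (left) and the 2 mitochondrial rRNAs (right), by batch (x axis), 1 point per library, with colour and shape for the 4 groups. The FL library of batch 4, at 2.16% and 0.390%, lies below all others.

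The 2 rRNAs took 0.390% to 1.25% of counts. In WT the shares were 0.764%, 0.838%, 0.895% and 1.17% in batches 1 to 4, and in FL they were 1.06%, 0.843%, 1.08% and 0.390%. NCTAD held 0.856%, 0.791%, 1.25% and 1.11%, and cIDR held 0.834%, 0.821%, 1.18% and 1.09%. In log2 CPM the summed rRNAs were at 12.90, 13.03, 13.13 and 13.51 in WT, at 13.38, 13.04, 13.40 and 11.93 in FL, at 13.06, 12.95, 13.61 and 13.44 in NCTAD, and at 13.03, 13.00, 13.53 and 13.41 in cIDR. MT-RNR2 carried nearly all of this: there were 8.12 to 14.1 MT-RNR1 counts per 100 MT-RNR2 counts. Per 100 mRNA counts there were 12.5 to 15.2 rRNA counts in 14 libraries, 16.7 in FL of batch 1 and 18.1 in FL of batch 4. Both FL libraries set apart therefore held the most rRNA relative to mRNA.

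Mature tRNAs have no poly(A) tail and are short, and the 22 tRNA genes gave 392 counts in all over the 16 libraries. The 4 WT libraries held 23, 76, 8 and 32 tRNA counts, the FL libraries 35, 19, 22 and 9, the NCTAD libraries 3, 38, 15 and 16, and the cIDR libraries 10, 48, 14 and 24. In log2 CPM the summed tRNAs ranged from -3.95 in NCTAD of batch 1 to 0.58 in WT of batch 2, with a median of -1.23. MT-TS1, the serine tRNA read from the minus strand, was the most counted, with 114 counts in all and 25 at most in 1 library. MT-TV, the valine tRNA between the rRNAs, followed with 70 counts. MT-TV reached 16 counts in WT, 16 in NCTAD and 19 in cIDR of batch 2, and 5 or fewer in each of the other 13 libraries, FL of batch 2 included. MT-TW, MT-TD, MT-TK, MT-TG and MT-TR had 0 counts everywhere, which allows levels of up to 0.0535 to 0.0778 CPM depending on the library. The tRNAs named were chosen after their values were seen. None of the 22 tRNAs passed the low-count filter, so 15 of the 37 genes were tested, namely all mRNAs and both rRNAs.

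Per unit of length, the mitochondrial mRNAs ranged over a wide scale within each cell population. In WT, in TPM (the authors' level per unit of transcript length, mean ± SD, n = 4), the highest level was that of MT-CO3, a complex IV subunit, at 19403 ± 3364. MT-ATP8 at 17914 ± 3191, MT-CO2 at 17386 ± 3542 and MT-CO1 at 16043 ± 2768 came next. MT-ATP6 was at 13057 ± 2323. The complex I mRNAs were lower and unequal. MT-ND4 and MT-ND4L, which share an mRNA, were at 10864 ± 1147 and 9358 ± 691 TPM. MT-ND1 was at 7932 ± 1216, MT-ND2 at 6946 ± 1177 and MT-ND3 at 5804 ± 1268, with MT-CYB of complex III at 6290 ± 1036. MT-ND5 followed at 2067 ± 227. MT-ND6, the only mRNA of the minus strand, was the lowest at 324 ± 91.7 TPM. The rRNAs stood at 8275 ± 1520 for MT-RNR2 and 1448 ± 389 for MT-RNR1, levels that concern only rRNA caught by poly(A) selection.

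In that order of 15 WT levels, neighbours overlapped in the range of their 4 libraries at 12 of the 14 steps. The exceptions were the steps from MT-ND3, with a lowest library at 4617 TPM, to MT-ND5, with a highest at 2289, and from MT-RNR1, lowest at 1122, to MT-ND6, highest at 430. By the means over 4 libraries, MT-CO3 was first, MT-ATP6 in place 5, MT-ND4L in place 7 and MT-ND6 last in WT, NCTAD and cIDR alike. In FL, MT-ND4L was at 2644, 11140, 10997 and 2336 TPM in batches 1 to 4, so the 2 libraries set apart lay below, and the other 2 above, the WT range of 8447 to 10128 TPM. These TPM values are the authors' per-length estimates and were not tested.

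**Figure D2:**
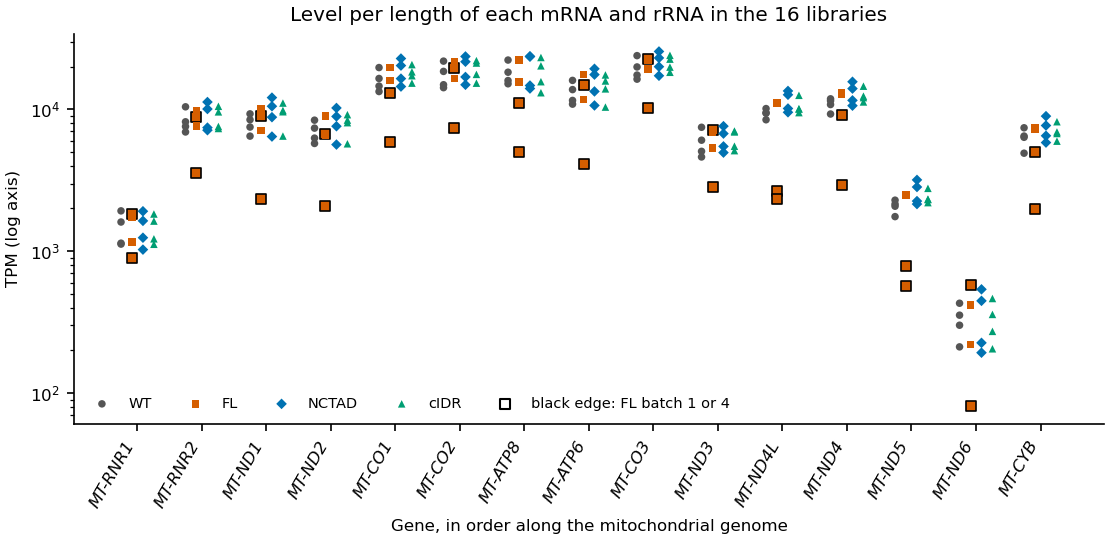
Level per length (TPM, log axis) of the 13 mRNAs and 2 rRNAs in order along the mitochondrial genome, 1 point per library, coloured by group, with the FL libraries of batches 1 and 4 edged in black. By group means over 4 libraries MT-CO3 leads and MT-ND6 is lowest, and the FL library of batch 4 lies below the others of its batch for every gene.

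The FL library of batch 4 was low in mitochondrial RNA without being shallow: its total of 48960936 counts was above those of the other 3 libraries of the batch, at 44512851 to 47610286. All mitochondrial genes together took 2.55% of its counts, against 8.83% in WT, 9.20% in NCTAD and 8.73% in cIDR of the same batch. Measured against the median of those 3 libraries on the log2 CPM scale, all 15 tested members were more than 1 lower, with a median of -2.10. Of all tested genes, 4.93% were more than 1 lower in this library. Among 6249 nuclear genes with a mean log2 CPM of at least 5 over all libraries, 23 were. These 6249 genes include nuclear copies of mitochondrial genes, which share reads with the members. The copy MTATP6P1 had 14482 estimated counts in this library and 55441 to 61177 in the other 3 libraries of the batch. How many of the 23 are such copies was not counted. The comparison of 1 library with 3 has no replicate and no test.

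The members were not lower by the same amount. MT-ND6 differed most, at -2.49 (5.63-fold lower), followed by MT-ND4L at -2.29 and MT-ATP8 at -2.27. MT-ND4, MT-ND1, MT-ND5 and MT-ND2 lay between -2.25 and -2.17, MT-ATP6 at -2.10 and MT-CYB at -1.98. The complex IV mRNAs were less low, at -1.83 for MT-CO1, -1.68 for MT-CO2 and -1.31 for MT-CO3. MT-ND3 was at -1.46. MT-RNR2 was at -1.63 and MT-RNR1 at -1.03 (2.04-fold lower), the smallest difference of the 15. As a share of mRNA counts, MT-CO3 therefore took 19.9% in this library and 12.5% to 13.9% in the 14 libraries other than the 2 set apart, while MT-ND4 took 11.2% against 13.7% to 17.5%.

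Other RNA classes also differed in that library. The nuclear-retained RNAs MALAT1 and NEAT1 together took 0.00756% of its counts, against 0.0235% to 0.0301% in the other libraries of batch 4. Nuclear copies of mitochondrial genes took 0.0911%, against 0.317% to 0.342%, but per 100 mitochondrial mRNA counts they were at 4.22, within the 3.92 to 4.46 of the other libraries of batch 4. Histone genes took 0.0157%, as in WT of that batch, and cytosolic ribosomal protein genes 6.38%, against 5.50% to 5.97%. EPAS1 was at 3245 CPM, between the 1620 and 3584 CPM of the other FL libraries. The part of RNA handling or poly(A) capture in the low mitochondrial share was not tested.

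**Figure D3:**
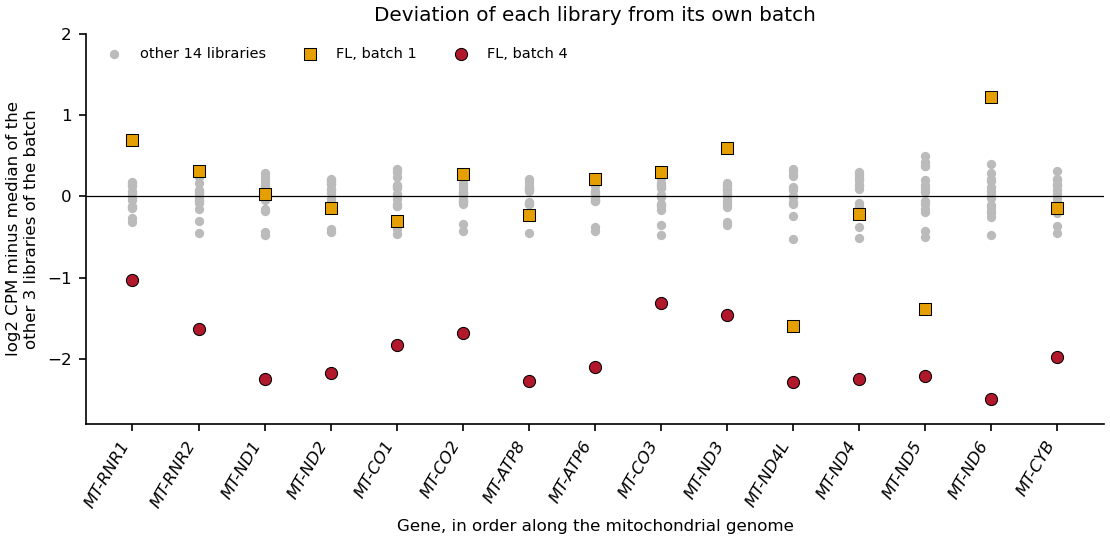
Deviation of each library from the median of the other 3 libraries of its batch (log2 CPM, y axis) for the 15 members in genome order, with FL of batch 4 (circles), FL of batch 1 (squares) and the other 14 libraries in grey. FL of batch 4 lies between -2.49 and -1.03 for all members, whereas FL of batch 1 is low for MT-ND4L and MT-ND5 and high for MT-ND6.

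The FL library of batch 1 had an ordinary mitochondrial share, with all mitochondrial genes at 7.43% of counts, but its transcripts were balanced differently. Against the median of the other 3 libraries of batch 1, MT-ND4L was at -1.60 (3.03-fold lower) and MT-ND5 at -1.39 (2.62-fold lower) on the log2 CPM scale. MT-ND6 was at 1.23 (2.34-fold higher), and MT-RNR1 at 0.69, MT-ND3 at 0.59 and MT-RNR2 at 0.32 were also above. In all, 7 members were lower and 8 higher, and 3 of 15 differed by more than 1, against 7.49% of all tested genes in either direction in this library. Of the 6249 nuclear genes with a mean log2 CPM of at least 5, 7 differed by more than 1. The SD of their deviations, 0.276, was the largest of the 16 libraries.

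Ratios between mitochondrial genes need no scaling between libraries, and those given here were chosen after the deviations of this library were seen. There were 3.25 MT-ND4L counts per 100 MT-ND4 counts in this library and 8.48 to 10.3 in the other 15. For MT-ND6 the ratio was 15.6 per 100 MT-ND5 counts, against 1.85 to 3.99, and for MT-ND5 it was 26.6 per 100 MT-CYB counts, against 48.0 to 63.0. MT-ATP8 stood at 9.50 per 100 MT-ATP6 counts, against 12.1 to 19.4. Each of these 4 ratios lay outside the range of the other 15 libraries, FL of batch 4 included. The ratio of the rRNAs did not, with 11.7 MT-RNR1 counts per 100 MT-RNR2 counts against 8.12 to 14.1. The library held 6752 MT-ND6 counts and 43348 MT-ND5 counts, and these counts set the counting error. Its cytosolic ribosomal protein genes took 7.34% of counts, the highest share of the 16 libraries, which otherwise ran from 5.36% to 7.03%, and the part of that in the ratios was not tested.

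**Figure D4:**
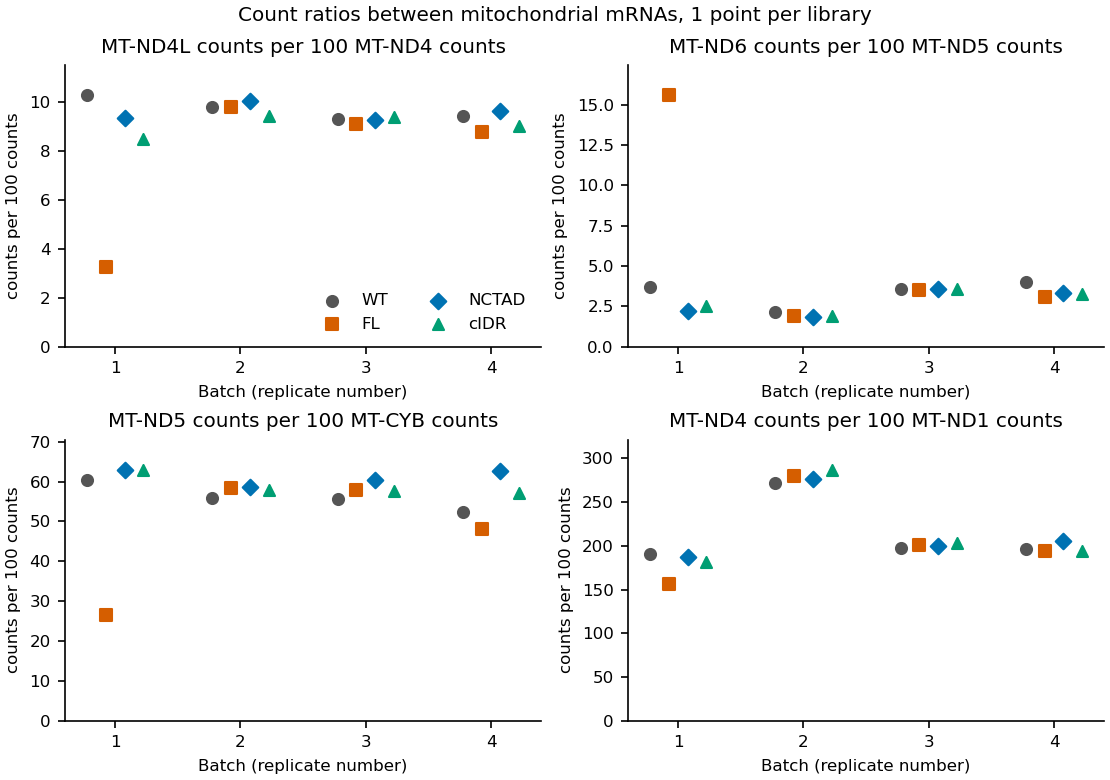
Counts of 1 mitochondrial mRNA per 100 counts of another (y axes from 0), by batch (x axis), 1 point per library, coloured by group. FL of batch 1 lies apart for MT-ND4L per MT-ND4 (3.25), MT-ND6 per MT-ND5 (15.6) and MT-ND5 per MT-CYB (26.6), and the 4 libraries of batch 2 lie above the rest for MT-ND4 per MT-ND1 (272 to 287).

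Batch was compared in a fit with group and batch as terms (edgeR, adjusted over 19530 genes, called at an adjusted p under 0.05). With all 16 libraries, 0 of the 15 members were called for the batch term, although 53.1% of all tested genes were. At an unadjusted p under 0.05 there was 1 member, where the share of all genes is at least that 53.1%. DESeq2 and limma on log2(TPM + 1) called 0 members. Without FL of batch 4 the same test called 13 of 15 members, beside 54.4% of all genes, and without both FL libraries set apart it called 15 of 15, beside 54.5%. The count thus rested on those libraries. They were set apart for values of these same members, so the calls without them, here and below, are no independent test.

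Against the other batches, 11 of the 15 members were lower and 4 higher in batch 2. In batch 2, with the groups in the order WT, FL, NCTAD, cIDR, MT-RNR1 was at 9.27, 9.33, 9.16 and 9.31 log2 CPM. It was at 9.31, 10.18, 9.62 and 9.49 in batch 1, at 9.79, 9.94, 10.10 and 10.07 in batch 3, and at 10.06, 8.87, 9.89 and 9.90 in batch 4. Within WT, NCTAD and cIDR the batch 2 library was the lowest of the 4, and within FL it was the lowest but for batch 4. MT-RNR1 was the 1 member called against the other batches, with a fall of 0.54 on the log2 scale (SE 0.181, edgeR adjusted p = 0.0206), beside 53.9% of all tested genes called in either direction. DESeq2 also called 1 member. The edgeR call was lost without NCTAD of batch 2 (edgeR adjusted p = 0.0814), without cIDR of batch 2 (edgeR adjusted p = 0.0531), with robust shrinkage in edgeR (adjusted p = 0.0659) and with limma on log2(TPM + 1) (adjusted p = 0.0521). MT-ND6 differed by -0.87 (SE 0.353, edgeR adjusted p = 0.0504), and the highest member was MT-ND4L at 0.32 (SE 0.270, edgeR adjusted p = 0.345). The median of the 15 was -0.27, against 0.035 over all tested genes.

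Without the 2 FL libraries, batch 2 was lower for 11 called members of 15, against 28.2% of all genes called lower. They were both rRNAs, the 3 complex IV and 2 complex V mRNAs, and MT-ND1, MT-ND2, MT-ND3 and MT-ND6. MT-ND6 fell by 0.85 (SE 0.102, edgeR adjusted p = 6.06e-06), MT-ND1 by 0.60 (SE 0.0646, edgeR adjusted p = 2.00e-06) and MT-RNR1 by 0.55 (SE 0.0658, edgeR adjusted p = 5.93e-06). The 4 members not called were MT-CYB at -0.08, MT-ND4 at -0.09, MT-ND5 at -0.11 and MT-ND4L at -0.02. In this fit 2 tRNAs, MT-TS1 and MT-TV, passed the filter as well. MT-TV was counted mainly in 3 libraries of batch 2, which also bear on the filter, so its comparison between batches is no test and is not reported.

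Batch 2 also differed in the ratio of MT-ND4 to MT-ND1, which lie on the same strand. With the groups in the same order, MT-ND4 in batch 2 stood at 13.24, 13.42, 13.28 and 13.37 log2 CPM and MT-ND1 at 11.80, 11.94, 11.81 and 11.84. There were 272 to 287 MT-ND4 counts per 100 MT-ND1 counts in these 4 libraries and 156 to 206 in the other 12. The ranges did not overlap in any group, and the pair was chosen after its values were seen.

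With all 16 libraries, 0 of 15 members were called in edgeR for batch 1 (24.7% of all genes, with 9.77% lower), batch 3 (16% of all genes, with 7.66% higher and 8.31% lower) or batch 4 (13.4% of all genes, with 6.57% higher and 6.87% lower). At an unadjusted p under 0.05 there were 0, 1 and 0 members, where the shares of all genes are at least those called. DESeq2 and limma also called 0 in each. The member with the smallest adjusted p was MT-ND4L in batch 1, at -0.49 (SE 0.280, edgeR adjusted p = 0.227), MT-RNR1 in batch 3, at 0.41 (SE 0.171, edgeR adjusted p = 0.121), and MT-ND4 in batch 4, at -0.29 (SE 0.252, edgeR adjusted p = 0.517). In the opposite direction they were MT-ND1 in batch 1, at 0.21 (SE 0.245, edgeR adjusted p = 0.585), and MT-RNR1 in batch 4, at 0.11 (SE 0.176, edgeR adjusted p = 0.764), while no member was lower in batch 3. MT-ND1 in batch 1 was at 12.03 log2 CPM in WT and at 12.47 (FL), 12.45 (NCTAD) and 12.47 (cIDR) in the constructs, so WT was the lowest. Without FL of batch 4 alone, 5 members were called lower in batch 1 (11.3% of all genes lower), 11 lower in batch 2 (27.2% lower), 11 higher in batch 3 (10.6% higher) and 8 higher in batch 4 (4.73% higher). Without the 2 FL libraries, 7 members were called lower in batch 1 (7.8% of all genes lower), 14 higher in batch 3 (10.6% higher) and 11 higher in batch 4 (6.85% higher). Of these calls, MT-ND6 rose most, by 0.63 in batch 3 (SE 0.0935, edgeR adjusted p = 0.00039) and by 0.50 in batch 4 (SE 0.103, edgeR adjusted p = 0.00513).

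The question of the design is whether cells with each form of HIF-2α differ from WT and from each other. Within batches, the share of all mitochondrial genes in FL differed from WT by 1.22, 0.550 and 1.57 percentage points in batches 1 to 3 and by -6.27 in batch 4. The mean was -0.732 ± 3.72 (SD over 4 batches) and 1.11 ± 0.519 without batch 4, so its sign depended on 1 library. NCTAD differed from WT by 1.34, -0.0635, 3.00 and 0.378 points, with a mean of 1.16 ± 1.36. For cIDR the differences were 1.31, 0.204, 2.31 and -0.0944 points, with a mean of 0.933 ± 1.10. Each construct was above WT in 3 of 4 batches. Each mean over 4 batches was smaller than its SD, the spread of the single differences and not the error of their mean. No test was made of these differences. These 3 comparisons share the WT libraries.

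Gene by gene, 0 of 15 members were called for any construct against WT with edgeR and group as the only term, where 0.0102% of all tested genes were called for FL, 0.0256% for NCTAD and 0.0102% for cIDR. None had an unadjusted p under 0.05. With the batch as a replicate block 0 members were called, none with an unadjusted p under 0.05, beside 0.102%, 0.456% and 0.486% of all genes. Those shares were made up of 0.0717%, 0.42% and 0.456% called higher and 0.0307%, 0.0358% and 0.0307% called lower. DESeq2 and limma called 0 members in each. The median log2 fold change of the members was -0.089 for FL, 0.29 for NCTAD and 0.20 for cIDR, against 0.0135, 0.0186 and 0.0097 over all genes. Of the 15 members, 2 were higher in FL and 15 each in NCTAD and cIDR, without passing the test. Single batches differed from this. In batches 1 to 4, 13, 9, 15 and 13 of the 15 were above WT in NCTAD. In cIDR 13, 12, 15 and 7 were, and in FL 12, 14, 15 and 0.

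MT-ND4L had the smallest adjusted p among the lower members in FL against WT. It was at 9.68, 9.89, 9.75 and 9.91 log2 CPM in WT and at 8.18, 10.07, 10.03 and 7.70 in FL. The 2 low values are those of the libraries set apart, and the other 2 FL libraries lie above all WT libraries. The log2 fold change was -0.46 (SE 0.381, edgeR adjusted p = 1) with group only and 0.23 in the same model without both libraries (SE 0.142, edgeR adjusted p = 1). With the block it was -0.63 and 0.18. MT-ND6 was the highest member, at 6.24, 5.74, 6.44 and 6.74 log2 CPM in WT and 7.36, 5.78, 6.71 and 4.25 in FL. FL held both the highest and the lowest value of the 8. Its log2 fold change was 0.09 (SE 0.486, edgeR adjusted p = 1), which was -0.02 in the same model without both FL libraries, and its direction turned without FL of batch 1 (to -0.44), FL of batch 3 (-0.03) or WT of batch 2 (-0.07). With the block it was 0.03, and 7 of 16 single left-out libraries turned it, so no direction holds for MT-ND6 here.

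MT-ND5, a complex I subunit, led among the members in NCTAD against WT. It was at 11.0005, 11.26, 11.24 and 11.39 log2 CPM in WT, at 11.50, 11.37, 11.92 and 11.77 in NCTAD, at 11.43, 11.42, 11.74 and 11.49 in cIDR, and at 10.04, 11.50, 11.55 and 9.28 in FL. It was higher than WT in 4 of 4 batches in NCTAD and in cIDR. Against WT, MT-ND5 stood at 0.42 in NCTAD (SE 0.349, edgeR adjusted p = 1) and at 0.30 in cIDR (SE 0.349, edgeR adjusted p = 1.00). In cIDR the smallest p was that of MT-ND4, at 0.29 (SE 0.316, edgeR adjusted p = 1.00). MT-ND4 was at 12.96, 13.24, 13.18 and 13.32 log2 CPM in WT and at 13.33, 13.37, 13.69 and 13.46 in cIDR, so that the groups did not overlap. Such a gap between the groups was found for 2 of 15 members in cIDR, MT-ND5 and MT-ND4, against 1.48% of all tested genes, and in NCTAD for 1, MT-ND4L, against 1.43%. MT-ND4L stood at 9.93, 9.97, 10.33 and 10.25 log2 CPM in NCTAD and at 9.77, 9.96, 10.27 and 9.98 in cIDR.

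Without FL of batch 4 and with the replicate block, FL was above WT for 12 of 15 members, with a median of 0.23, and 0 were called (0.0653% of all genes). At an unadjusted p under 0.05 there were 10 of 15 members in FL, 8 in NCTAD and 8 in cIDR, and 1838, 1253 and 1202 of all 19905 genes tested in that fit. MT-ND5 in NCTAD against WT was at 0.40 there (SE 0.189, edgeR adjusted p = 0.792). Without both FL libraries, in the same model, 2 of 15 members were called in NCTAD against WT, where 0.724% of all genes were called. MT-ND5 rose by 0.41 (SE 0.0770, edgeR adjusted p = 0.0198) and MT-ND4 by 0.33 (SE 0.0706, edgeR adjusted p = 0.0482). Neither library left out belongs to this comparison. Both were set apart for values of these same members, so the calls are no independent test. In cIDR and FL the counts were 0 (0.665% and 0.113% of all genes), with 10 and 6 of 15 members at an unadjusted p under 0.05, where 1770 and 804 of all 20437 genes tested in that fit were. The medians in that fit were 0.18 for FL, 0.27 for NCTAD and 0.20 for cIDR. A call in 1 construct and not in another does not show that they differ, so the constructs were also compared directly.

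**Figure D5:**
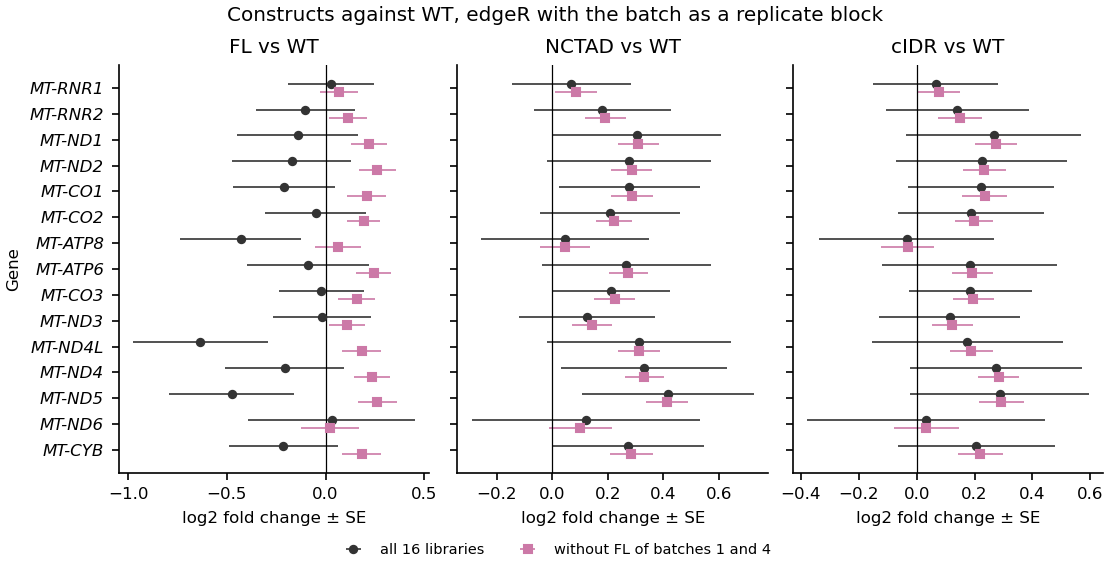
Log2 fold change against WT (x axis, bars ± SE) of the 15 members in genome order for FL, NCTAD and cIDR, in edgeR with the batch as a replicate block, over all 16 libraries (circles) and without FL of batches 1 and 4 (squares). In FL the circles run from -0.63 for MT-ND4L to 0.03, and the squares are all above 0, from 0.02 to 0.26.

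Between constructs, edgeR called 0 of 15 members in each of the 3 comparisons, with or without the block, and DESeq2 and limma called 0. Of all tested genes, 0% were called for NCTAD against FL, cIDR against FL and cIDR against NCTAD with group only, and 0%, 0.0307% and 0.00512% with the block. At an unadjusted p under 0.05 the group-only fit had 1 member, MT-ND5 in NCTAD against FL, and the block fit had 2, 2 and 0. Against FL, the member with the smallest p was MT-ND5 in both cases, at 0.77 in NCTAD (SE 0.351, edgeR adjusted p = 1) and at 0.64 in cIDR (SE 0.350, edgeR adjusted p = 1). Without FL of batch 4 the MT-ND5 values were 0.475 and 0.35, and without both FL libraries they were 0.14 (SE 0.155, edgeR adjusted p = 1) and 0.0079 (SE 0.154, edgeR adjusted p = 1). The medians of the 15 members were 0.43 and 0.38, and they were 0.077 and 0.016 with the block and without the 2 FL libraries. MT-ND6, at 6.13, 5.72, 6.92 and 6.56 log2 CPM in cIDR, was the 1 member not above FL, at -0.02 (SE 0.486, edgeR adjusted p = 1), which turned to 0.0014 with the block.

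NCTAD and cIDR lay close to each other, with a median of -0.059 in cIDR against NCTAD and a range from -0.13 for MT-ND5 (SE 0.349, edgeR adjusted p = 1) to -0.014 for MT-RNR1. All 15 members were lower in cIDR in this fit. MT-ND5 turned to 0.0278 with the block and without NCTAD of batch 4. The share of mitochondrial counts in cIDR minus that in NCTAD was -0.0341, 0.267, -0.687 and -0.473 percentage points in batches 1 to 4, with a mean of -0.232 ± 0.430, and the mean ran from -0.398 without batch 2 to -0.0799 without batch 3. This mean was smaller than the SD of the single differences, which does not show that the 2 forms act alike.

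The 37 nuclear genes of a list for mitochondrial DNA upkeep, transcription and RNA processing were all tested. In each of the 6 group comparisons 0 of them were called in edgeR, with or without the block, and their medians lay between -0.0078 and 0.038 with group only. At an unadjusted p under 0.05 there were 0 of 37 in each, save for 1 in cIDR against FL with the block. For the batch term 26 of 37 were called (53.1% of all genes), with 11 called for batch 1 (24.7%), 8 for batch 3 (16%) and 5 for batch 4 (13.4%). In batch 2 against the others 6 rose and 22 fell, against 27.7% of all tested genes called higher and 26.1% called lower. POLRMT, the mitochondrial RNA polymerase, fell by 0.48 (SE 0.0457, edgeR adjusted p = 6.27e-07) and PNPT1, an RNA-degrading enzyme, by 0.44 (SE 0.0392, edgeR adjusted p = 2.91e-07). ELAC2, which cuts tRNA 3′ ends, fell by 0.59 (SE 0.0611, edgeR adjusted p = 1.39e-06), and FASTKD5, which acts on the mRNA borders without tRNAs, by 0.38 (SE 0.0428, edgeR adjusted p = 3.06e-06). Without both FL libraries, with the block, 0 of the 37 were called in each group comparison, 26 for the batch term (54.5% of all genes), and 6 higher and 23 lower in batch 2 (28.4% and 28.2% of all genes). At an unadjusted p under 0.05 there were 3 in FL, 1 in NCTAD and 2 in cIDR against WT, where 804, 1807 and 1770 of all 20437 genes were. The part of these genes in the levels of the mitochondrial RNAs was not tested.

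Nuclear DNA holds copies of mitochondrial genes that share reads with the members. The table has 404 rows of such copies, of which 305 had 0 counts in every library and 8 held 96.4% of the counts. MTATP6P1 (chr1:633696-634376, plus strand) differs from MT-ATP6 at 10 of 681 aligned bases and holds 61.3% of its 31-base words. It received 20.0 to 22.8 counts per 100 MT-ATP6 counts in all libraries and 20.5 in FL of batch 4, so it was low together with MT-ATP6 in that library. MTCO1P12 had 3.44 to 5.83 counts per 100 MT-CO1 counts, and MTCO2P12 had 2.91 to 4.62 per 100 MT-CO2 counts. How many of these reads came from mitochondrial RNA was not tested, and the MT-ATP6 level is uncertain for that reason.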

How the data were processed

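The deposited gene tables hold estimated counts and TPM, a level per transcript length, for 63187 genes in 16 libraries. Both kinds of value were made by the authors, and the submitters' processing notes list fastp, STAR, Salmon, featureCounts and GRCh38 without roles or versions. The estimated counts, of which 15.5% were not whole as deposited, were rounded to whole numbers before testing. The TPM values were used as the authors deposited them. The number of per-sample columns left unused was 0. Columns were assigned by the library names in the labels' descriptions: columns named CTRL are the libraries labelled WT, and columns named WT are those labelled FL.

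Counts were tested with edgeR 4.0.16 (R 4.3.3): TMM scaling, edgeR's default low-count filter, quasi-likelihood F test, and Benjamini-Hochberg adjustment over 19530 genes. Genes with an adjusted p under 0.05 were called. Group comparisons used group as the only term over all 16 libraries, and batch comparisons used group and batch. Log2 CPM of single genes used TMM scaling and a prior count of 2. The labels give the replicate number as a batch, so libraries with the same number are paired. Deviations from the group means correlated at 0.308 on average (0.0674 to 0.712) within a number and at -0.0945 between libraries of different number and group. The biological coefficient of variation was 0.245 with group only and 0.108 with the batch as a block. The test code was run on simulated counts with known changes, which checks the code and not its fit to these data. No 2 libraries of a group agreed within sampling noise: the lowest chi-square per degree of freedom was 6.89. Nothing says that replicates came from separate cultures, so p-values measure only the spread between these samples.

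Alternatives were DESeq2 1.42.0, limma 3.58.1 on log2(TPM + 1) or, for the group comparisons, log2(TPM + 0.1), other scalings and filters, the replicate block, and leaving libraries out. Coordinates and sequences came from GENCODE 29 (GRCh38). Every mRNA and rRNA was named, with values by library for the member of smallest adjusted p in each direction of each comparison. From the list of nuclear genes up to 4 called genes of smallest p were named, for batch 2 only, and of the nuclear copies the 3 with the highest counts. The members and lists were chosen with earlier results of these data known.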

Additional observations from a re-analysis of the deposited data

Results flagged for a closer look

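Among 84 sets of 4 libraries examined for 1 value far from the other 3, 4 were marked. Chance marks about 1 in 20 such sets. MT-ND4 in FL of batch 4 was the lowest of its group, at 11.21 log2 CPM, in the library whose mitochondrial share was low throughout. MT-ATP8 in WT of batch 4 was the highest of its group, at 9.97 log2 CPM. The same WT library held 15.2 rRNA counts per 100 mRNA counts, the highest of its group. NCTAD of batch 3 had the largest total of its group, at 56.1 M counts.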

How the results depend on the processing

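The 6 group comparisons called 0 members with every alternative run, the replicate block and each left-out library included, except NCTAD against WT, where leaving out FL of batches 1 and 4 with the replicate block gave 2 (148 of all 20437 genes). The replicate block therefore changed no call with all 16 libraries. With those FL libraries left out, the batch results (main counts 0 for batches 1, 3 and 4 and for the batch term, and 1 for batch 2) became 7 for batch 1, 12 for batch 2, 14 for batch 3, 11 for batch 4 and 16 for the batch term (4492, 11561, 3948, 2752 and 11130 of all 20437 genes), with MT-TV, whose counts lie mainly in batch 2, included in batch 2 and the batch term. Leaving group out of the model gave 2 for batch 2 and 1 for the batch term (10709 and 10756 of all genes), median-of-ratios scaling gave 2 for batch 2 (10563), and limma on log2(TPM + 1) and robust shrinkage each gave 0 for batch 2 (8409 and 10498). Without the low-count filter, with 32 members tested, the counts were 4 for batch 2, 1 for batch 3 and 4 for the batch term (10508, 2958 and 10462 of all genes). Over single left-out libraries, the ranges were 0 to 5 for batch 1, 0 to 12 for batch 2, 0 to 11 for batch 3, 0 to 8 for batch 4 and 0 to 14 for the batch term, each highest without FL replicate 4, where the tested tRNA genes are counted too.

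The balance of higher and lower members turned in 3 results when FL libraries were left out. With the replicate block, FL against WT had 13 of 15 members lower, and 12 higher without FL replicate 4 or 15 higher without both FL libraries. Batch 4 went from 13 lower to 15 higher without both, and batch 1 from 8 higher to 13 lower. Without both FL libraries, MT-ND4 in batch 4 stood at 0.12, MT-ND4L in batch 2 at -0.0209 and MT-ND4L in FL against WT at 0.18. MT-ND6 in cIDR against FL was at 0.0014 with the replicate block (also with robust shrinkage), 0.0007 in DESeq2 with the block, 0.0067 with scaling from nuclear genes, 0.0111 without both FL libraries, 0.26 from the 8 libraries compared, and 0.28 in limma with either pseudocount. MT-ND6 in FL against WT was at -0.29 in limma and -0.19 from 8 libraries with the block. Over single left-out libraries with group only, MT-ND6 ran from -0.44 to 0.39 in FL against WT and from -0.34 to 0.50 in cIDR against FL; in the fits of group and batch, MT-ND4 in batch 4 ran from -0.47 to 0.12, MT-ND4L in batch 2 from -0.0755 to 0.48, and MT-RNR1 in batch 4 from -0.077 to 0.40. With the replicate block, MT-ND6 in FL against WT ran from -0.5772 to 0.4931 and turned without FL replicate 1 (-0.5772), FL replicate 2 (-0.0163), WT replicate 1 (-0.1008), WT replicate 3 (-0.1208), NCTAD replicate 1 (-0.0281), NCTAD replicate 4 (-0.0314) and cIDR replicate 1 (-0.01). MT-ND6 in cIDR against FL ran from -0.4563 to 0.5826 with the block and was above 0 in 11 of 16 such fits, without FL replicates 1 (0.5826) or 2 (0.0456), cIDR replicate 1 (0.1873), NCTAD replicates 1 to 4 (0.0628, 0.0051, 0.0018 and 0.0505) or WT replicates 1 to 4 (0.0315, 0.0006, 0.0093 and 0.0567). MT-ND5 in cIDR against NCTAD was at 0.0278 with the block and without NCTAD replicate 4. The cause of these turns was not tested. The mitochondrial share differences from WT ran from -1.50005 to 1.11 percentage points for FL, from 0.552 to 1.57 for NCTAD and from 0.473 to 1.28 for cIDR over single left-out batches. They ran from 0.312 to 2.73 for NCTAD minus FL, from 0.161 to 2.34 for cIDR minus FL and from -0.398 to -0.0799 for cIDR minus NCTAD. None of the tRNAs passed the default low-count filter over all 16 libraries.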
